A study of Homo sapiens with 12 samples.

Results

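The 10 genes described here were CTCF, RAD21, SMC1A, SMC3, STAG1, STAG2, NIPBL, MAU2, PDS5A and PDS5B, chosen by symbol among the 42157 genes of a raw count table. All 10 passed the filter on low counts, as did 13696 genes in total, and their lowest count in any library was 1338 reads (MAU2). Polyadenylated RNA was sequenced from HL-60 cells, an established line of human acute myeloid leukaemia (AML) cells. Cells were treated for 3 h in 4 groups of 3 replicates: ML-792+DNR (0.5 µM ML-792 with 1 µM DNR), DNR (1 µM), ML-792 (0.5 µM) and DMSO, the vehicle. DNR is daunorubicin, an anthracycline that intercalates into DNA and poisons topoisomerase II, and ML-792 blocks the SUMO-activating enzyme, the first step in attaching the protein modifier SUMO to its targets. The comparisons asked what DNR changed in mRNA levels, and whether blocking SUMO attachment altered that change.

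CTCF is a zinc finger protein that binds insulator sites on DNA. Cohesin is a ring of SMC1A, SMC3 and RAD21, with STAG1 or STAG2 bound to it, which holds sister chromatids together and extrudes chromatin loops that stop at CTCF sites. NIPBL with its partner MAU2 loads cohesin and drives extrusion, and PDS5A and PDS5B regulate the release and stability of the ring. Cohesin subunits, STAG2 among them, are recurrently mutated in AML.

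Reads in genes numbered 28647951 to 46451654 per library. Values are CPM, read counts as a share of all reads in genes, on the usual CPM scale, after TMM scaling for library composition. The 6 myeloid markers checked were expressed at a like summed level in every group (10971 to 12083 CPM in ML-792+DNR, 10465 to 11031 CPM in DNR, 10643 to 13445 CPM in ML-792 and 11169 to 12453 CPM in DMSO), most of it MPO, whereas ELANE averaged 1.81 CPM or less in each group. The sum hides the smaller markers. PRTN3 averaged 320 CPM in ML-792+DNR, 162 in DNR, 343 in ML-792 and 122 in DMSO. In ML-792 replicates 1, 2 and 3 it had 120, 133 and 777 CPM, and AZU1 had 41.4, 56.3 and 112 CPM. ELANE was also highest in ML-792 replicate 3 of that group (4.03 CPM), whereas CTSG and CD33 were highest in its replicate 1. Of lymphocyte markers, 5 of 5 averaged under 1 CPM over the 12 libraries, as did 5 of 5 erythroid markers and 5 of 6 stromal and epithelial ones. Mitochondrially encoded transcripts took 4.01% to 6.37% of reads in the libraries of replicate 1 and 2.49% to 3.48% in those of replicates 2 and 3, so the counts below are also given without replicate 1.

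The 6 genes whose promoters are shown are the 5 that were lower in DNR-treated than in DMSO-treated cells, and MAU2, which was not. Each line gives the 250 bases upstream of the RefSeq start (GRCh38.p14), 5′ to 3′ on the strand of the gene. They are chr16:67562276-67562525 (+) for CTCF, chr3:136752379-136752628 (-) for STAG1, chr5:36876519-36876768 (+) for NIPBL, chr19:19320579-19320828 (+) for MAU2, chr4:39977912-39978161 (-) for PDS5A and chr13:32586202-32586451 (+) for PDS5B. Capitals mark TTGGCGC and TTCCCGC, letters of E2F-type elements, on either strand.
CTCF: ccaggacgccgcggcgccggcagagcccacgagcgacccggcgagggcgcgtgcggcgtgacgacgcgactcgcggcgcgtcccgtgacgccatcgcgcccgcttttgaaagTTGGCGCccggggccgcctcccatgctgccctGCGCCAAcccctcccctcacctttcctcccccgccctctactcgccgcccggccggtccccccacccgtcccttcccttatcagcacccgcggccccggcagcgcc
STAG1: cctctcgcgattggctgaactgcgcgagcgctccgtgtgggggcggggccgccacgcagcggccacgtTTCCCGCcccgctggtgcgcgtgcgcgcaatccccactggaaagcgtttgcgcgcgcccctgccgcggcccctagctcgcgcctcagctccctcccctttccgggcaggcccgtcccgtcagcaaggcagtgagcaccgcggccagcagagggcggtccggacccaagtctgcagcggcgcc
NIPBL: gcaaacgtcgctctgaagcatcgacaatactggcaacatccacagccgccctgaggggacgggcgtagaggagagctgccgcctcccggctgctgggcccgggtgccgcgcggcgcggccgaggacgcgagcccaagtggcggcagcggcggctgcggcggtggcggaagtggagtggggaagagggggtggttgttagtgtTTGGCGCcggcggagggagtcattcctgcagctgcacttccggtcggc
MAU2: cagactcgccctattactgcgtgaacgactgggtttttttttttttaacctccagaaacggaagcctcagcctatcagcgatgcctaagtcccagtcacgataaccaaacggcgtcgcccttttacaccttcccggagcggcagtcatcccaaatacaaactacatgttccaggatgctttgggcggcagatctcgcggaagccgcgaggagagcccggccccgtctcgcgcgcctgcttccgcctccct
PDS5A: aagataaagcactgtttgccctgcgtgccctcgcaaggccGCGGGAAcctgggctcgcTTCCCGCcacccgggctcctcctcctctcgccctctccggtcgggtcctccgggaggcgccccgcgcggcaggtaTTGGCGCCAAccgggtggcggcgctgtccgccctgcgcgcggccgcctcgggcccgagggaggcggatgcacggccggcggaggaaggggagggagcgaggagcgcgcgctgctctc
PDS5B: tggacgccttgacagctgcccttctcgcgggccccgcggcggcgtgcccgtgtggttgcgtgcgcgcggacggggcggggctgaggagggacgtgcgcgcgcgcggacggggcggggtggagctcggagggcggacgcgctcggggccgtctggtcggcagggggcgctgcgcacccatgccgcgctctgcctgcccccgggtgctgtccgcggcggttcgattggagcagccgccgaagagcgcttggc

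E2F factors control genes of the S phase. TTGGCGC stood in 4 of the 12 windows searched for 9 of the genes (CTCF, NIPBL, PDS5A and 1 of the 3 STAG2 starts) and in 2.56% of 35116 promoters. TTCCCGC stood in 3 of the 12 windows (PDS5A, STAG1 and 1 of the 2 SMC1A starts) and in 5.52% of all promoters. In PDS5A, TTGGCGC matched both strands at overlapping positions. None of PDS5B, MAU2 and SMC3 had a match to either. GGGCGG, the GC box of SP and KLF factors, stood in 12 of 12 windows and in 42.6% of promoters. CCGGAAG, an ETS element, stood in 3 of the 12 windows (NIPBL and both SMC1A starts) and in 8.52% of promoters. The windows of the 2 SMC1A starts overlap and share this CCGGAAG site, so the 12 windows are not all separate. CACGTG and TGACGTCA stood in 0 of the 12 windows (6.34% and 1.65% of promoters). Both strands were searched, and the letters were picked after the windows had been read, so these matches are a description. The start of RAD21 was not used here.

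To compare levels between genes, CPM were divided by the length of each gene's MANE Select transcript in kb, so that the order rests on that annotation. In DMSO-treated cells the ring was the most abundant part: RAD21 averaged 60.2 ± 6.12 CPM per kb, SMC3 56.3 ± 2.38, STAG2 47.1 ± 4.53 and SMC1A 43.96 ± 3.67 (SD, n = 3). PDS5A (38.9 ± 2.95 CPM per kb) and CTCF (36.0 ± 3.71) followed, and then came STAG1 (20.4 ± 1.86), NIPBL (17.0 ± 1.02), PDS5B (14.2 ± 0.762) and MAU2 (9.70 ± 1.08). Neighbours in this order overlapped in their libraries for RAD21 and SMC3, for STAG2 and SMC1A, for SMC1A and PDS5A, and for PDS5A and CTCF. The other neighbours did not overlap. In DNR-treated cells the first 8 places were held by the same genes in the same order, but MAU2 (11.1 ± 0.298 CPM per kb) stood above PDS5B (9.55 ± 0.671) with no overlap, and its libraries overlapped those of NIPBL (11.5 ± 0.726).

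**Figure D1:**
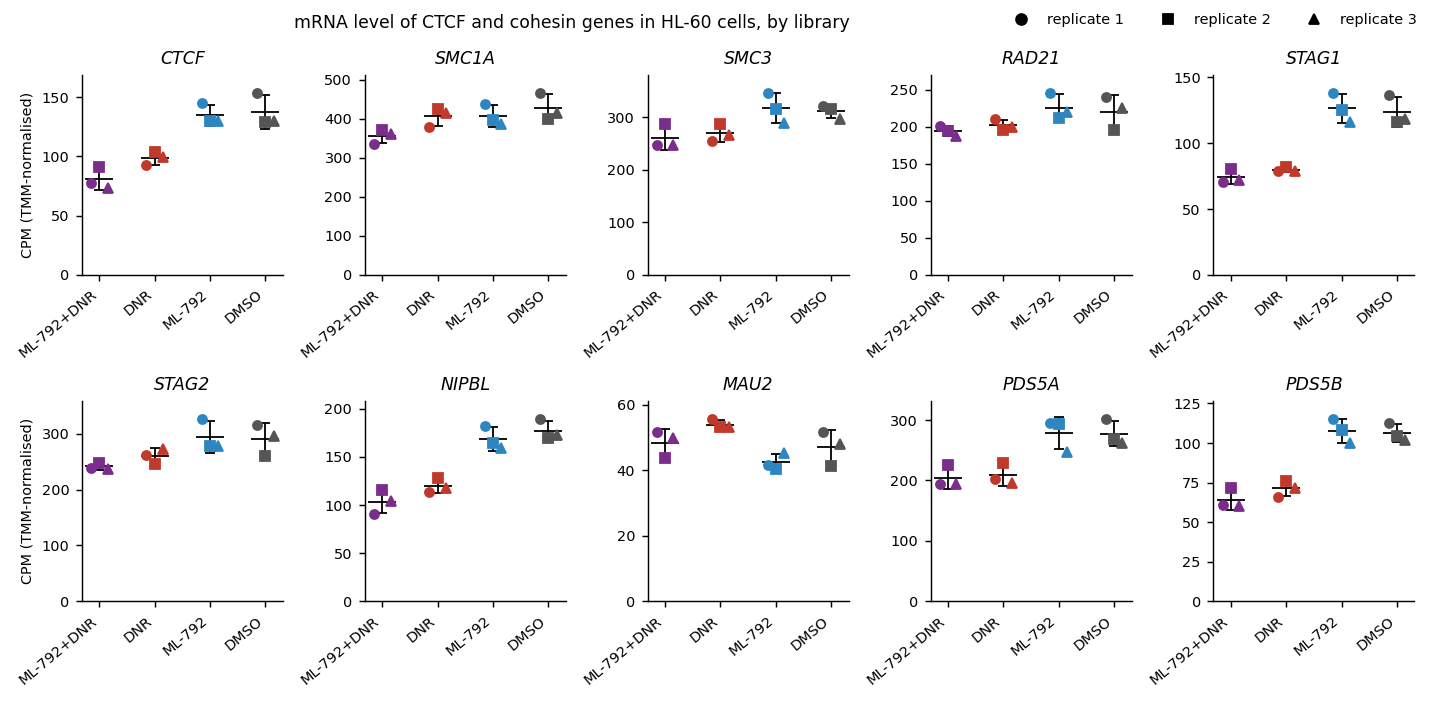
TMM-normalised CPM (vertical axis, from 0) of the 10 genes in each of the 12 libraries, by group; symbols mark the replicate, and bars give the mean and SD of 3 replicates. CTCF, SMC3, STAG1, NIPBL, PDS5A and PDS5B were lower in all 6 libraries with DNR than in all 6 without, whereas the libraries of RAD21, SMC1A, STAG2 and MAU2 overlapped.

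The mRNA of CTCF, STAG1, NIPBL, PDS5A and PDS5B was lower in DNR-treated cells, and the other 5 genes did not pass the test. Of the 10 genes, 5 were lower and 0 were higher in DNR-treated than in DMSO-treated cells at an adjusted p below 0.05 (edgeR quasi-likelihood test, Benjamini-Hochberg over all 13696 genes), where 15.7% of all tested genes were lower and 14.3% were higher. DESeq2 and limma voom called 5 of the 10 each, and 6 of the 10 had an unadjusted p below 0.05, as had 5548 of all tested genes. The median log2 change was -0.31 over the 10 genes and 0.01 over all tested genes. None of the 10 reached the 2-fold change that the study also required, which 6.98% of tested genes did. Below, it is said for which of the 10 genes the libraries of DNR and DMSO did not overlap. The share of all tested genes for which this held in DNR vs DMSO was not counted, so it is a description only. In such bulk samples, fewer cells with a transcript and less of it per cell cannot be told apart.

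CTCF had 92.6, 104 and 99.8 CPM in the 3 DNR libraries, against 154, 129 and 130 CPM in the 3 DMSO libraries. The groups did not overlap, and DMSO replicate 1 was the highest of all 12. The log2 change was -0.48 ± 0.10 (SE, adjusted p = 0.00228), that is 0.718 times the DMSO level. With replicates 2 and 3 only, the change was -0.36 (adjusted p = 0.0550), so that the call was lost, and leaving out any 1 library kept it (highest adjusted p = 0.0134).

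Within the ring, no subunit passed the test. SMC3, an ATPase subunit, had 255, 287 and 266 CPM in DNR libraries and 321, 316 and 296 CPM in DMSO libraries; these did not overlap, with a log2 change of -0.21 ± 0.09 and an adjusted p of 0.0830. SMC1A, the other ATPase, had 380, 425 and 416 CPM with DNR and 467, 399 and 415 CPM with DMSO (log2 change -0.07 ± 0.08, adjusted p = 0.570). RAD21, the kleisin that closes the ring, had 211, 196 and 199 CPM with DNR and 240, 196 and 226 CPM with DMSO (log2 change -0.13 ± 0.08, adjusted p = 0.279). For SMC1A and RAD21 the groups overlapped. SMC3 was called when scaled by library size only, when the fit held these groups only or when ML-792 replicate 3 was left out (adjusted p = 0.0402, 0.0361 and 0.0462). It was also called with the replicate number as a block (adjusted p = 0.0302).

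The 2 STAG genes, whose proteins bind the ring as alternatives, differed. STAG1 had 78.5, 82.1 and 78.6 CPM in DNR libraries, against 136, 116 and 118 CPM in DMSO libraries. All 3 DNR libraries lay below every DMSO library, and the log2 change of -0.63 ± 0.09 (adjusted p = 0.000145) was the largest of the 10 genes in this comparison. STAG2 had 263, 246 and 273 CPM with DNR and 316, 261 and 296 CPM with DMSO. These groups overlapped, and the log2 change was -0.16 ± 0.09 (adjusted p = 0.188). Exons of STAG1 overlap exons of PCCB on the other strand by up to 1661 bases, and no source used here says whether reads were counted by strand. PCCB had a log2 change of 0.16 ± 0.09 in the same comparison (adjusted p = 0.207). RAD21 likewise overlaps UTP23 by 84 bases (log2 change 0.28 ± 0.10, adjusted p = 0.0548).

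The loader split. NIPBL, the subunit that binds cohesin and stimulates its ATPase, had 113, 128 and 118 CPM in DNR libraries and 189, 170 and 173 CPM in DMSO libraries. The groups lay well apart, with a log2 change of -0.57 ± 0.09 (adjusted p = 0.000539), or 0.675 times the DMSO level. MAU2 had 55.7, 53.1 and 53.2 CPM with DNR and 51.7, 41.4 and 48.0 CPM with DMSO. All 3 DNR libraries were above the DMSO libraries, by a log2 change of 0.20 ± 0.10 that did not pass the test (adjusted p = 0.135). With the replicate number as a block, MAU2 was called (adjusted p = 0.0361).

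Both PDS5 genes were lower. PDS5A had 202, 229 and 196 CPM in DNR libraries, against 302, 269 and 263 CPM in DMSO libraries (log2 change -0.41 ± 0.10, adjusted p = 0.00591). PDS5B had 66.2, 76.2 and 71.6 CPM with DNR and 113, 104 and 102 CPM with DMSO (log2 change -0.58 ± 0.09, adjusted p = 0.000329). Neither gene's groups overlapped. With replicates 2 and 3 only, PDS5A was not called (log2 change -0.33, adjusted p = 0.109), and the genes called numbered 3 (STAG1, NIPBL and PDS5B).

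With ML-792 alone no gene of the 10 passed the test. In ML-792-treated against DMSO-treated cells 0 of the 10 were called by edgeR, DESeq2 or limma voom, and 0 had an unadjusted p below 0.05 in edgeR, where 0.0584% of all tested genes were lower and 0.183% were higher. CTCF had 145, 130 and 130 CPM in ML-792 libraries and 154, 129 and 130 CPM in DMSO libraries. Its log2 change was -0.03 ± 0.10, and those of the 10 genes lay between -0.15 (MAU2) and 0.04 (RAD21), with standard errors of 0.08 to 0.10.

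**Figure D2:**
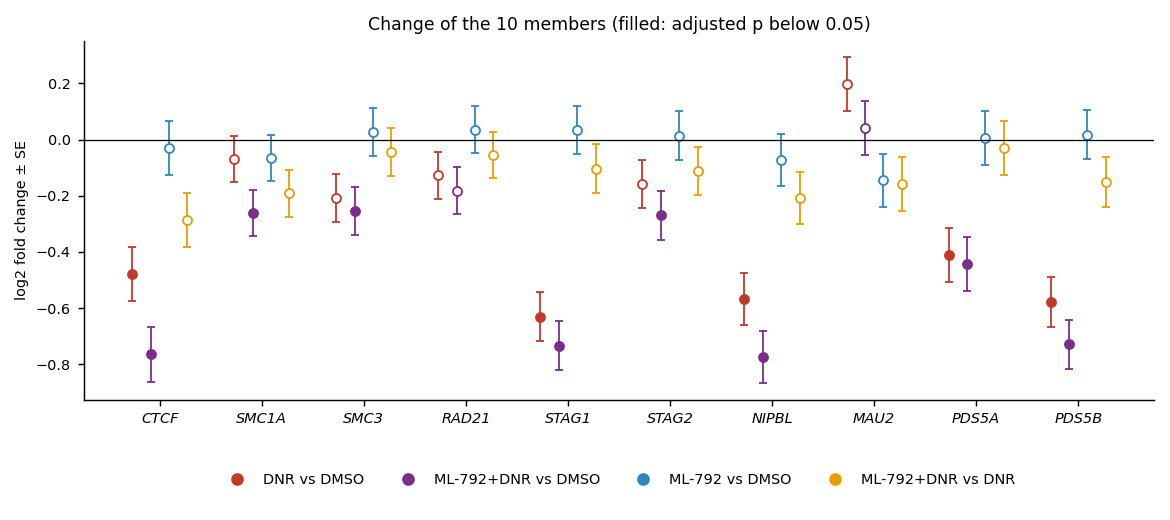
Log2 fold change of the 10 genes (points, vertical axis) with its standard error (bars) in 4 comparisons, the first-named group over the second; filled points had an adjusted p below 0.05 over all tested genes. CTCF, STAG1, NIPBL, PDS5A and PDS5B lie between -0.41 and -0.77 in both comparisons of DNR-containing treatments with DMSO, and no point of ML-792 vs DMSO or of ML-792+DNR vs DNR is filled.

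With both drugs the same 5 genes were lower, and 3 ring-associated genes also passed the test. These 3 were not called between ML-792+DNR-treated and DNR-treated cells. In ML-792+DNR-treated against DMSO-treated cells 8 of the 10 were lower and 0 higher, where 18.4% of tested genes were lower and 17% higher. CTCF had 77.6, 91.3 and 73.7 CPM in ML-792+DNR libraries, against 154, 129 and 130 CPM in DMSO libraries. It stood at 0.589 times the DMSO level (log2 change -0.76 ± 0.10, adjusted p = 8.62e-05). NIPBL had 91.1, 116 and 104 CPM in ML-792+DNR libraries and 189, 170 and 173 CPM in DMSO libraries (log2 change -0.77 ± 0.09). STAG1, PDS5B and PDS5A changed by -0.73 ± 0.09, -0.73 ± 0.09 and -0.44 ± 0.10. The additional calls were of smaller size: STAG2 (-0.27 ± 0.09, adjusted p = 0.0267), SMC1A (-0.26 ± 0.08, adjusted p = 0.0245) and SMC3 (-0.25 ± 0.09, adjusted p = 0.0340).

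These 3 calls were lost when single libraries were left out. Without DMSO replicate 1, without ML-792+DNR replicate 1 or without ML-792+DNR replicate 3, SMC1A, SMC3 and STAG2 were all lost and 5 genes were called. STAG2 was also lost without DMSO replicate 3, and SMC3 without DMSO replicate 2. With replicates 2 and 3 only, 4 genes were called (CTCF, STAG1, NIPBL and PDS5B). With the replicate number as a block, 9 were lower, the addition being RAD21 (log2 change -0.18, adjusted p = 0.0252, against 0.106 without the block), which was also called without DMSO replicate 2 (adjusted p = 0.0291).

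Against ML-792 alone, the combination gave the same set apart from SMC1A. In ML-792+DNR-treated against ML-792-treated cells 7 of the 10 were lower and 0 higher, where 17.4% of tested genes were lower and 16.3% higher. STAG1 had 70.7, 80.1 and 71.8 CPM in ML-792+DNR libraries, against 138, 125 and 116 CPM in ML-792 libraries (log2 change -0.77 ± 0.09, adjusted p = 4.60e-05). PDS5B had 61.0, 71.4 and 60.1 CPM in ML-792+DNR libraries, against 115, 108 and 100.03 CPM in ML-792 libraries (-0.75 ± 0.09). CTCF changed by -0.74 ± 0.10, NIPBL by -0.70 ± 0.09 and PDS5A by -0.45 ± 0.10. SMC3 and STAG2 each changed by -0.28 ± 0.09 (adjusted p = 0.0220 and 0.0221). The replicate block added RAD21 (-0.21, adjusted p = 0.0108, against 0.0603 without it). Leaving out ML-792 replicate 1, ML-792+DNR replicate 1 or ML-792+DNR replicate 3 lost SMC3 and STAG2, as did a fit of these 2 groups only, and leaving out ML-792 replicate 2 lost SMC3 (adjusted p = 0.0501). RAD21 was called without DMSO replicate 1 or 2 (adjusted p = 0.0496 and 0.0366), and SMC1A without ML-792 replicate 3 (0.04999).

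ML-792 made no called difference among DNR-treated cells. In ML-792+DNR-treated against DNR-treated cells 0 of the 10 genes were called by edgeR, DESeq2 or limma voom, where 0.489% of tested genes were lower and 0.256% were higher in edgeR. All 10 log2 changes were negative, from -0.29 (CTCF) to -0.03 (PDS5A), with a median of -0.13 against 0.00 over all tested genes, and 3 had an unadjusted p below 0.05, as had 1768 of the 13696 tested genes. CTCF was the lowest, with 77.6, 91.3 and 73.7 CPM in ML-792+DNR libraries, against 92.6, 104 and 99.8 CPM in DNR libraries. Its libraries did not overlap, and neither did those of SMC1A and MAU2 (MAU2 log2 change -0.16 ± 0.10, adjusted p = 0.535). The share of all tested genes for which this held was not counted, so it is a description only. The log2 change of CTCF was -0.29 ± 0.10 (unadjusted p = 0.0107, adjusted p = 0.218). The others with an unadjusted p below 0.05 were NIPBL (-0.21 ± 0.09, adjusted p = 0.362) and SMC1A (-0.19 ± 0.08, adjusted p = 0.340).

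The interaction asks whether the DNR change differed with and without ML-792. None of the 13696 genes was called by edgeR (0% lower and 0% higher, with 493 genes at an unadjusted p below 0.05), whereas DESeq2 called 17 and limma voom 0, none of them among the 10. The interaction of CTCF was -0.26 ± 0.14 on the log2 scale (unadjusted p = 0.0799, adjusted p = 0.999), and those of the other 9 genes lay between -0.17 (PDS5B) and -0.01 (MAU2).

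Averaged over cells with and without ML-792, the DNR effect uses 6 libraries with DNR and 6 without. By this measure 8 of the 10 genes were lower and 1 was higher, where 24.2% of tested genes were lower and 23.9% higher. In order of size the log2 changes were -0.70 ± 0.06 for STAG1, -0.66 ± 0.06 for PDS5B, -0.63 ± 0.07 for NIPBL, -0.61 ± 0.07 for CTCF and -0.43 ± 0.07 for PDS5A. The ring-associated genes SMC3 (-0.25 ± 0.06), STAG2 (-0.22 ± 0.06) and RAD21 (-0.17 ± 0.06, adjusted p = 0.0276) were lower by less, and SMC1A was not called (-0.13 ± 0.06, adjusted p = 0.0761), except with library size only or when replicate 2 of DNR, replicate 2 of DMSO or replicate 3 of ML-792 was left out (0.0363 to 0.0479). For 6 genes (the first 5 and SMC3) every library with DNR lay below every library without, as it did for 13.2% of tested genes.

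MAU2 was the gene that was higher. It had 51.7, 43.6 and 49.8 CPM in ML-792+DNR libraries and 55.7, 53.1 and 53.2 CPM in DNR libraries, against 41.8, 40.5 and 45.3 CPM in ML-792 libraries and 51.7, 41.4 and 48.0 CPM in DMSO libraries. The averaged log2 change was 0.19 ± 0.07 (adjusted p = 0.0305). The call was lost when libraries were scaled by size only (adjusted p = 0.0561), with no count filter (0.0608), with replicates 2 and 3 only (0.129) and without any 1 of 7 libraries (DMSO replicates 2 and 3, DNR replicate 1, ML-792 replicates 1 and 2, and ML-792+DNR replicates 1 and 3; adjusted p from 0.0561 to 0.0904). RAD21 was lost with replicates 2 and 3 only (adjusted p = 0.131) and when DMSO replicate 1, ML-792 replicate 1 or else ML-792+DNR replicate 3 was left out (0.0577 to 0.0696). With replicates 2 and 3 only, SMC3 and STAG2 were also lost (adjusted p = 0.112 and 0.116).

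The ratio of 2 genes within a library does not depend on how the library is scaled. The STAG1/STAG2 ratio of counts was 0.296, 0.323 and 0.303 in ML-792+DNR libraries and 0.299, 0.333 and 0.288 in DNR libraries, against 0.423, 0.448 and 0.419 in ML-792 libraries and 0.431, 0.444 and 0.3999 in DMSO libraries. The 6 libraries with DNR were all below the 6 without. How often the ratios of other gene pairs part in this way was not examined, and the genes were chosen with earlier results of these data known. DNR shifted the log2 ratio by -0.48 (exact two-sided permutation test of DNR labels within ML-792 strata, p = 0.005, the smallest its 400 arrangements can give; adjusted p = 0.01 over 4 tests). Per kb of transcript, STAG1 made up 23.8% ± 0.834 of STAG1 and STAG2 in ML-792+DNR and 23.8% ± 1.40 in DNR, against 30.5% ± 0.777 in ML-792 and 30.2% ± 1.12 in DMSO (SD, n = 3).

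The PDS5A/PDS5B ratio moved towards PDS5A, although both genes were lower. It was 3.18, 3.16 and 3.22 in ML-792+DNR libraries and 3.05, 3.002 and 2.73 in DNR libraries, against 2.57, 2.71 and 2.48 in ML-792 libraries and 2.67, 2.57 and 2.57 in DMSO libraries. Again no library with DNR overlapped those without, but narrowly, the nearest being 2.73 in DNR and 2.71 in ML-792. The shift by DNR was 0.24 on the log2 scale (exact permutation p = 0.005, again the smallest possible, adjusted p = 0.01). The limits given for STAG1/STAG2, on other gene pairs and on the choice of genes, hold here too. Averaged over cells with and without DNR, neither ratio passed the test for ML-792: the shift was 0.01 for STAG1/STAG2 (exact permutation p = 0.8, adjusted p = 0.8) and 0.06 for PDS5A/PDS5B (p = 0.18, adjusted p = 0.24). Among DNR-treated cells alone, the PDS5A/PDS5B ratio was higher in all 3 ML-792+DNR libraries than in all 3 DNR libraries, a difference that was not tested by itself. When labels were permuted only within pairs of the same replicate number, the 64 arrangements could not give an adjusted p under 0.0625, which both DNR shifts had.

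The NIPBL/MAU2 ratio was examined after its values had been seen and is given as a description. It was 1.76, 2.66 and 2.09 in ML-792+DNR libraries and 2.03, 2.41 and 2.22 in DNR libraries, against 4.37, 4.06 and 3.50 in ML-792 libraries and 3.67, 4.11 and 3.60 in DMSO libraries. Each of the 6 libraries with DNR held fewer reads of NIPBL per read of MAU2 than each of the 6 without.

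**Figure D3:**
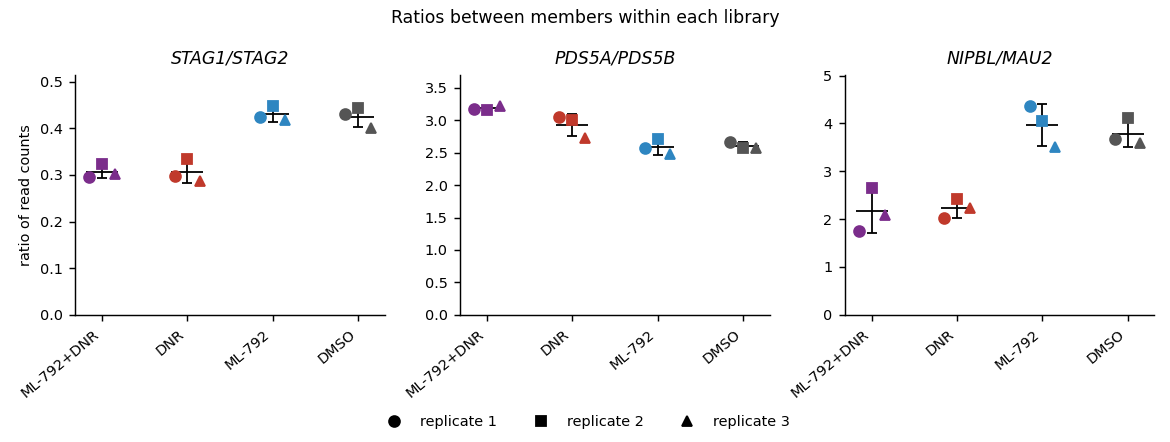
Ratio of read counts (vertical axis, from 0) between 2 genes in each library, by group; symbols mark the replicate, and bars give the mean and SD of 3 replicates. STAG1/STAG2 and NIPBL/MAU2 are lower, and PDS5A/PDS5B higher, in all 6 libraries with DNR than in all 6 without.

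The 10 genes differ in genomic span, taken from the MANE Select transcript (GRCh37). STAG1 spans 416.14 kb (chr3:136055078-136471220, 34 exons), PDS5B 191.57 kb (chr13:33160589-33352157), NIPBL 189.65 kb (chr5:36876871-37066515, 47 exons), PDS5A 155.05 kb (chr4:39824483-39979531), STAG2 140.95 kb (chrX:123095556-123236506) and CTCF 76.652 kb (chr16:67596429-67673080, 12 exons). The remaining 4 are shorter: SMC1A 48.534 kb (chrX:53401070-53449603), SMC3 38.354 kb (chr10:112327453-112365806), MAU2 37.926 kb (chr19:19431638-19469563) and RAD21 28.843 kb (chr8:117858173-117887015). Among the 11310 tested genes with such a transcript, long genes were lower with DNR more often. Of 989 genes of 150 kb or more, 52.9% were lower and 3.54% higher in the averaged DNR effect, with a median log2 change of -0.26. Of 4463 genes under 20 kb, 17.8% were lower and 34.9% higher, with a median of 0.13.

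All 4 members of 150 kb or more were lower, in a class where 52.9% of genes were. STAG1, PDS5B and NIPBL lay below the lower quartile of that class (-0.48), and PDS5A lay within its quartiles. CTCF, in the class from 50 to 100 kb, lay below the lower quartile of -0.28 of 1868 genes, of which 31.6% were lower. STAG2 lay within the quartiles of its class (100 to 150 kb, 805 genes, -0.35 to 0.06), as did SMC1A, RAD21 and MAU2 within theirs (20 to 50 kb, 3185 genes, -0.23 to 0.23), whereas SMC3 lay just below the lower quartile of that class. The part of gene span in these changes was not tested. Transcript length ran the same way: 44.5% of 1433 genes with transcripts of 7 kb or more were lower, and 12% of 2666 genes with transcripts under 2 kb.

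**Figure D4:**
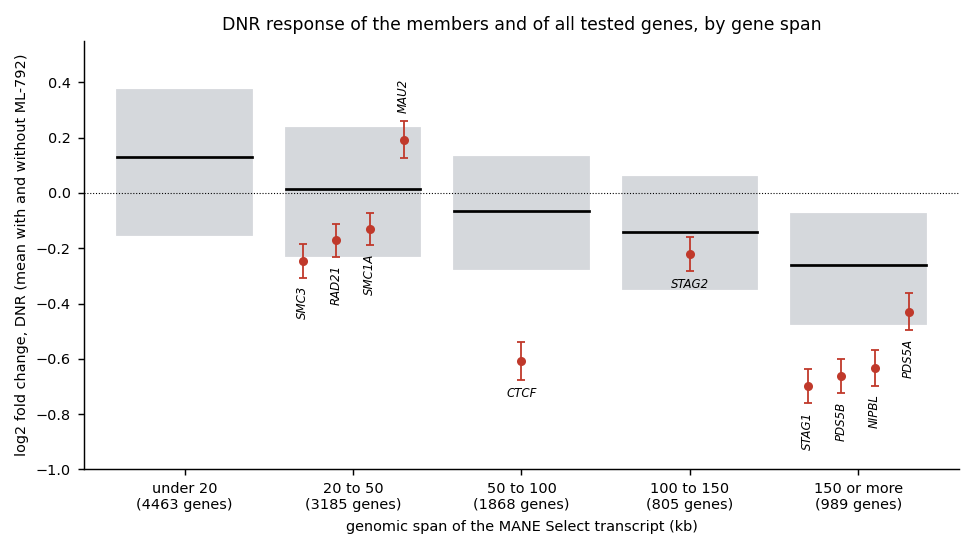
Log2 fold change of the averaged DNR effect (vertical axis) by genomic span in kb (horizontal axis); grey boxes and lines give the quartiles and median of all tested genes in the class, red points the 10 genes with their standard errors. The medians go down from 0.13 in genes under 20 kb to -0.26 in genes of 150 kb or more, and CTCF, STAG1, PDS5B, NIPBL and SMC3 lie below their boxes.

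To place each gene beside others, its log2 CPM were centred on their mean over the 12 libraries, and the root mean square difference from every other tested gene with a mean of at least 5 CPM (9352 genes) was taken. The measure has no test, and all points share the same libraries. Nearest to CTCF were SCAPER (0.0621 on the log2 scale), SETD5 (0.0642) and DENND6A (0.0675), and PDS5B (place 6) and NIPBL (place 7) followed closely. RAD50 (0.0505) was among the genes nearest to STAG1, with PDS5B at place 4. Nearest to PDS5B were CEP170 (0.0433), DENND6A (0.0457) and RAD50 (0.0507), with STAG1 at place 4, and nearest to NIPBL were USP34 (0.0470), CLASP1 (0.0490) and SETDB1 (0.0526), with PDS5B at place 10. RAD50 is a subunit of a complex that binds DNA breaks, and it was near to both STAG1 and PDS5B.

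The ring genes had other neighbours. RAD21 was nearest to THG1L (0.0351), MTDH (0.0414) and GUF1 (0.0461), SMC1A to SENP2 (0.0253), USP9X (0.0472) and CNOT1 (0.0473), SMC3 to CAND1 (0.0299), MORF4L1 (0.0310) and VAPB (0.0338), and STAG2 to CPSF2 (0.0381), VEZT (0.0391) and RNF115 (0.0413). SENP2 encodes a protease that removes SUMO. RAD21 and STAG2 were each at place 9 of the other's list. PDS5A was nearest to USP7 (0.0347), CNOT2 (0.0379) and NAT10 (0.0385), with no other of the 10 before place 352 (SMC3), and MAU2 to RPAP1 (0.0596), PI4KB (0.0659) and UBAP1 (0.0707), with none before place 3246 (SMC1A). With each profile divided by its own SD, between 0 and 2 of the 3 nearest genes were kept per member.

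Of 16 further regulators of cohesin, all tested, 3 were lower and 2 were higher in DNR-treated than in DMSO-treated cells, where 15.7% of all tested genes were lower and 14.3% higher, so that these shares lay near those of all genes. The median log2 change was -0.05 (0.01 over all tested genes). The 2 acetyltransferases that act on SMC3 moved in opposite directions. ESCO1, which acts through the cell cycle, had 32.9, 39.9 and 40.1 CPM in DNR libraries, against 68.9, 64.2 and 73.8 CPM in DMSO libraries (log2 change -0.87 ± 0.10, adjusted p = 2.96e-05). ESCO2, which acts in S phase, had 65.1, 59.8 and 69.6 CPM with DNR and 36.4, 32.0 and 36.1 CPM with DMSO (0.90 ± 0.10, adjusted p = 2.93e-05). PLK1, a mitotic kinase that removes cohesin from chromosome arms, had 39.1, 46.1 and 51.5 CPM with DNR and 114, 92.5 and 131 CPM with DMSO (-1.31 ± 0.17, adjusted p = 0.000107). The other calls were BOD1 (-0.44, lower) and CDCA5 (0.33, higher), which encodes sororin, a protector of cohesin; these were named after their values had been seen. WAPL, which releases the ring, was at 171 CPM with DNR and 200 CPM with DMSO (adjusted p = 0.0865) and was likewise named afterwards.

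Among 13 loop and insulator partners, 4 were lower and 1 was higher with DNR, where 15.7% and 14.3% of tested genes were, with a median of -0.22 (0.01 over all tested genes). PATZ1, a zinc finger repressor, had 40.5, 48.0 and 39.8 CPM in DNR libraries, against 102, 101 and 104 CPM in DMSO libraries (log2 change -1.26 ± 0.09, adjusted p = 6.87e-07). VEZF1, a zinc finger factor with a role at insulators in chicken cells, had 22.8, 33.9 and 26.9 CPM with DNR and 60.6, 52.5 and 53.6 CPM with DMSO (-0.997 ± 0.151). ADNP, a homeodomain protein that competes with CTCF for sites in mouse cells, had 103, 143 and 116 CPM with DNR and 250, 231 and 228 CPM with DMSO (-0.97 ± 0.14). None of these groups overlapped. The remaining calls were TOP2A (-0.49) and MED1 (0.28), named after their values had been seen.

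The other SMC complexes were condensin and SMC5/6. Of 8 condensin genes 2 were lower and 2 higher with DNR, where 15.7% and 14.3% of tested genes were (median 0.00 against 0.01 over all tested genes), and the largest changes called were of NCAPH2 (0.48 ± 0.16, adjusted p = 0.0358), NCAPH (-0.44 ± 0.08, adjusted p = 0.000970) and SMC2 (0.26 ± 0.08, adjusted p = 0.0321). The other was SMC4 (-0.24, named afterwards). Of the SMC5/6 complex 0 of 5 tested genes were called; SMC5, the most abundant, had 140, 148 and 140 CPM in DNR libraries and 150, 140 and 137 CPM in DMSO libraries. Of 5 germline relatives of cohesin and CTCF only REC8 and STAG3 passed the count filter, and REC8, the meiotic kleisin, had 1.35, 0.868 and 0.997 CPM with DNR and 0.583, 0.650 and 0.331 CPM with DMSO (1.05 ± 0.35, adjusted p = 0.0372). No gene of these lists was called in the interaction.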

How the data were processed

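The deposited table gave raw read counts per gene for 12 libraries of HL-60 RNA. The authors prepared stranded TruSeq mRNA libraries, mapped single-end reads by TopHat2 2.1.1 (Bowtie2 2.3.5.1) to GRCh37 and obtained counts from HTSeq 0.11.1, used here as deposited. Cufflinks 2.2.1, Picard and DESeq2 are named in the submitters' notes as well. Whether HTSeq used strand is not given in the sources used. Deposited tables of normalised values and of the authors' own comparisons (fold changes and p-values) were not used here. The 5 counter lines were left out; records in genes were 65.3% to 67.4%.

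Genes were filtered with filterByExpr (minimum count 10, minimum total 15), scaled by TMM (factors 0.954 to 1.04) and tested in edgeR 4.0.16 (R 4.3.3) over all 12 libraries with a group term. Alternatives were DESeq2 1.42.0, limma 3.58.1 (voom), 2 other scalings, 2 other filters, a replicate block, the compared groups only, a 2-fold minimum, replicates 2 and 3 only and leaving out each library. The fits were also run on simulated counts, with results not reported here. Those counts held no effect of the replicate number, so they cannot show whether leaving out the block matters. Methods state 3 independent experiments; p-values measure the spread between these samples. Median changes of all genes stayed near 0 under every scaling, which such scaling itself tends to bring about. All changes given here are relative to the other transcripts, so a shift in total mRNA would not be seen. No 2 libraries were copies (chi-square per gene of 16.1 to 79.1 within groups). Same-numbered libraries deviated together in every pair of ML-792 vs DMSO and of ML-792+DNR against each other group (lowest r over genes 0.120). For DNR vs DMSO the same-number values were 0.0798, 0.230 and 0.306, and those of different numbers ran from -0.252 to 0.00103. Because of the lowest value the numbers were not taken as pairs there, although all 3 were positive and above every different-number value. A number that marks an experiment would pair all 4 groups alike, so this was a choice. It matters, since with the numbers as a block SMC3 and MAU2 were also called in DNR vs DMSO. The main tests used no block in any comparison. ML-792 and DNR, not compared directly, had a lowest same-number value of 0.0735.

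Named genes were all 10 members, from each other list up to 3 called genes with the largest change in DNR vs DMSO (or the most abundant where none was), and the 3 nearest genes per member, of which some are not reported here. The members and lists were chosen with earlier results of these data known. Coordinates are from GENCODE v44lift37, with 82.6% of tested genes matched; promoters are RefSeq's. No molecular identifiers were used.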

Additional observations from a re-analysis of the deposited data

How the results depend on the processing

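The 2-fold minimum is left out of the next counts. Over 1450 values of a single gene under another alternative, 1344 kept their direction and their side of the threshold. Of the rest, 45 lost a call, 18 gained one, 0 calls reversed, and 43 uncalled values changed sign. With a 2-fold minimum the counts of lower genes were 0 in every comparison, as was the count of higher genes in the averaged DNR effect. With replicates 2 and 3 only, 3 genes were lower in DNR vs DMSO, 4 in ML-792+DNR vs DMSO, 4 in ML-792+DNR vs ML-792 and 5 in the averaged DNR effect, where 0 were higher. Leaving out 1 library at a time gave 5 to 6, 5 to 8, 5 to 8 and 7 to 9 lower genes in those comparisons, and 0 to 1 higher in the averaged effect. That higher gene (MAU2) was also lost with library size only and with no count filter (0 genes each). The replicate block changed the calls of ML-792+DNR vs DMSO and ML-792+DNR vs ML-792 as given above and no other call in a comparison taken as paired. In DNR vs DMSO, where the numbers were not taken as pairs, it gave 6 lower genes and 1 higher, the additions being SMC3 (adjusted p = 0.0302) and MAU2 (0.0361). With the permutation within replicate pairs the DNR shifts of the log2 ratios were -0.479 (STAG1/STAG2) and 0.235 (PDS5A/PDS5B), each at an adjusted p of 0.0625. With replicates 2 and 3 only they were -0.457 and 0.228 (adjusted p = 0.111, since 36 arrangements cannot pass). Leaving out 1 library they ran from -0.510 to -0.457 and from 0.220 to 0.260. Limits: each group had 3 samples, mRNA at 3 h says nothing of protein, and the smaller called changes (SMC1A, SMC3, STAG2, RAD21 and MAU2) were lost without single libraries, except those of SMC3 and STAG2 in the averaged effect.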
